A study of Homo sapiens with 4 samples.

Results

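The genes described here are 45 genes of DNA replication and of its licensing, chosen by name from general knowledge of the process, out of 59533 genes analysed. Earlier results of these data were known when the genes were chosen, so comparisons with all genes below describe and do not test. All 45 symbols were found in the processed table, each on a single line, and all 45 had values in all 4 libraries. RNA was sequenced from HCC1937 breast cancer cells and from THP-1 cells, a myeloid line derived from leukaemia. Per the labels both lines are p53-/- and received p53-R282W, a mutant of the tumour suppressor p53, by infection, so the untreated cells carry the mutant too. The 4 groups, with 1 library each, were untreated HCC1937, HCC1937 given decitabine (DAC) at 0.3 µM for 5 days, untreated THP-1, and THP-1 given DAC at 5 µM for 2 days. DAC is a deoxycytidine analogue that is built into DNA during replication and traps DNA methyltransferases there. No library of cells without the mutant was analysed here, and dose, time and cell line differ together between the pairs.

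Before a cell copies its DNA, the origin recognition complex, CDC6 and CDT1 load the ring-shaped MCM2-7 helicase onto origins in the G1 phase. In S phase the kinase CDC7 with DBF4, together with CDC45 and the GINS complex, turns the loaded helicase on, and polymerases, the sliding clamp PCNA and its loader RFC copy the strands. Many of these genes are transcribed under the control of E2F factors at the G1/S transition, so their RNA is usually higher in dividing cells.

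Values are FPKM, that is fragments per kilobase of exon, scaled to the counted reads of the library. The depth could be read from the spacing of the values and was 18.7 to 19.7 M counted reads a library. All 15 epithelial markers reached 1 FPKM in both HCC1937 libraries and all 15 myeloid markers did in both THP-1 libraries. No group has replicates, so a difference within a line carries no p-value and describes its 2 libraries only. Intervals beside ratios are exact 95% intervals from estimated reads and cover counting error alone. A difference is taken on log2(FPKM + 1), and every count past 1.5-fold or 2-fold is on that scale, where a low gene can fall short although its plain FPKM ratio is past the limit. Genes under 1 FPKM in both libraries of a line were dropped from that line. All 45 members reached 1 FPKM in every library. In bulk RNA a larger share of cells in S phase and more RNA of these genes per cell cannot be told apart.

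In HCC1937, most replication genes stood somewhat higher in the DAC library, while no member differed by 2-fold on log2(FPKM + 1). HELLS alone had a plain FPKM ratio above 2, at 2.43. Of the 45 members, 43 were higher with DAC by any amount, against 66.2% of the 14058 kept genes, and GINS1 and ORC2 were lower. The median log2 difference of the members was 0.40 (quartiles 0.19 and 0.58), and that of all kept genes was 0.19 (quartiles -0.11 and 0.52). The number on the higher side depended on scaling: it was 37 of 45 under median-of-ratios scaling and 30 under upper-quartile scaling, where 56.2% and 44.8% of all kept genes were higher and their median moved to 0.07 and -0.06. The members' median minus that of all kept genes was 0.21 as deposited and 0.19 and 0.17 under these scalings.

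At 2-fold or more, 0 of 45 members were higher, against 10.3% of kept genes, and 0 were lower, against 1.44%. At 1.5-fold or more, 11 members were higher, against 21.9% of kept genes, and 0 were lower, against 5.91%. As deposited, the share past 1.5-fold was thus near that of all genes. It depended on the setting: 5 of 45 members were past 1.5-fold under median-of-ratios scaling against 17.6% of kept genes, 2 under upper-quartile scaling against 14.2%, and 5 with a pseudocount of 10 against 3.33%. The members' share was below that of all genes under both scalings and above it with the larger pseudocount. Among genes of at least 5 FPKM in 1 library, 10 of 39 members were past 1.5-fold, against 16.3% of all such genes. The counting interval of the ratio lay wholly above 1 in 37 members, against 51.1% of kept genes with an exon length, and wholly below 1 in 0, against 21.6%. These shares also move with the number of reads, which ran from 169 to 9858 for a member in a library.

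**Figure D1:**
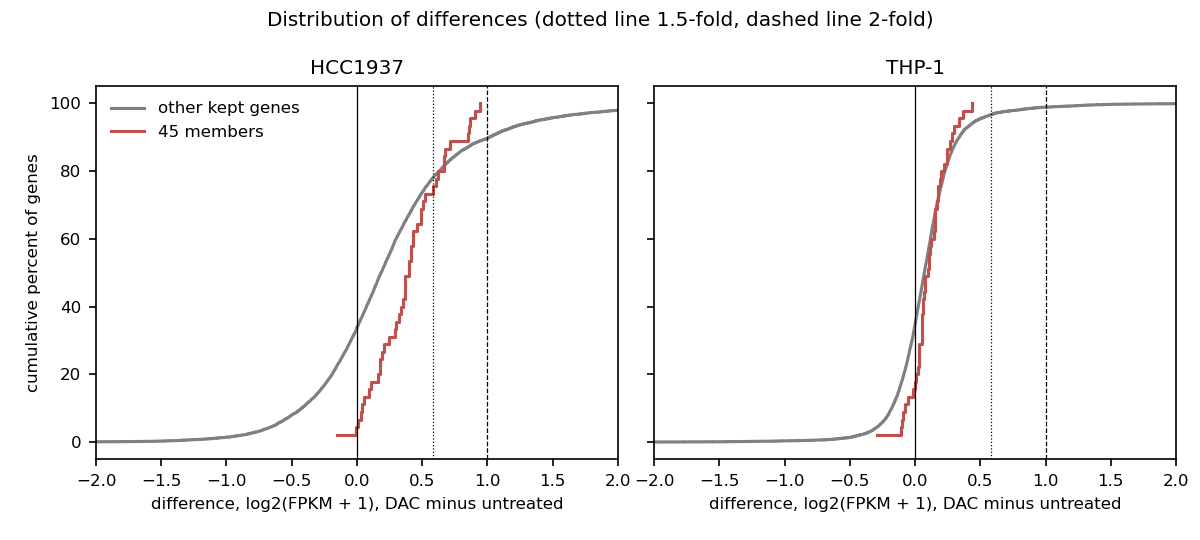
Cumulative percent of genes (vertical axis) against the DAC minus untreated difference on log2(FPKM + 1) (horizontal axis), for the 45 members and for the other kept genes, in HCC1937 (left) and THP-1 (right). The members' curve in HCC1937 runs to the right of the other genes up to about the 1.5-fold line and ends before the 2-fold line, and in THP-1 both curves lie close together.

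Promoters are shown because many of the members are known E2F targets, and the binding letters can be seen in the windows themselves. RefSeq promoter windows (GRCh38.p14, 250 bases before to 50 after a start) were found by symbol for 38 of the 45 members, and 7 (MCM4, MCM5, GINS4, POLD3, RPA2, RPA3 and CCNE2) were not matched. The windows were searched on both strands for 4 spellings of the E2F-type motif, TTTCCCGC, TTTCGCGC, TTTGCCGC and TTTGGCGC, matches that overlap being counted separately. At least 1 match was present in 20 of 38 members (52.6%) and in 1090 of 27305 genes with a window (3.99%). The windows of all genes hold fewer CpG letters than those of the members, and each spelling contains CpG. Of 11 constitutive reference genes with a window, whose median CpG count equals that of the members, 2 (18.2%) had a match. In 18 of the 20 a match began at most 100 bases upstream of the start or after it, as in 565 of the 1090 genes. Windows with at least 2 matches were found for 7 of 38 members and for 49 of the 27305 genes.

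The 160 bases that end just before the RefSeq start follow, 5′ to 3′ on the gene's strand, for 4 of the 5 members past 1.5-fold with matches in this stretch (HELLS, RFC3, CDC7 and E2F1, but not POLE), for MCM6 with its repeated match, and for 2 contrasts chosen after their values were seen. FEN1 was past 1.5-fold without a match in its window, and POLA1 had a match and differed little. Capitals mark the matched letters. The stretches are chr10:94545628-94545787 (+) for HELLS, chr13:33817989-33818148 (+) for RFC3, chr1:91500952-91501111 (+) for CDC7, chr20:33686386-33686545 (-) for E2F1, chr2:135876444-135876603 (-) for MCM6, chr11:61792751-61792910 (+) for FEN1 and chrX:24693758-24693917 (+) for POLA1.
HELLS: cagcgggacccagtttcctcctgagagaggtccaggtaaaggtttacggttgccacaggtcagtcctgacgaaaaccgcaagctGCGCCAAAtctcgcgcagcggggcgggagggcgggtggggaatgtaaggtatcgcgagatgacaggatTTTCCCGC
RFC3: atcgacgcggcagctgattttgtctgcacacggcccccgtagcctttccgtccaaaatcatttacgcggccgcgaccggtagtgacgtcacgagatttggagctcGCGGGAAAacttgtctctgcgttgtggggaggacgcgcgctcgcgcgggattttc
CDC7: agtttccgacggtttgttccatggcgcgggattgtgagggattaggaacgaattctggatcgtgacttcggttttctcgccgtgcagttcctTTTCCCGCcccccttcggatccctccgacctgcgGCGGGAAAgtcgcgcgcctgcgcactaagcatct
E2F1: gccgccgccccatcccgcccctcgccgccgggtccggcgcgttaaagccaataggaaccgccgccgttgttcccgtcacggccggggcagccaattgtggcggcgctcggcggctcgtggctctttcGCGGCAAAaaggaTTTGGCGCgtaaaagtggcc
MCM6: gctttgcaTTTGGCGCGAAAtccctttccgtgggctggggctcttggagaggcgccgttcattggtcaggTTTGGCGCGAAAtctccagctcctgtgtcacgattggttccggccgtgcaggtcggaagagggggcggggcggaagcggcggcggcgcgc
FEN1: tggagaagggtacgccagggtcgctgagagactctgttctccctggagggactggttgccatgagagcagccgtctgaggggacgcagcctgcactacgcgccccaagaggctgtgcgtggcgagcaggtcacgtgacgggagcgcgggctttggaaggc
POLA1: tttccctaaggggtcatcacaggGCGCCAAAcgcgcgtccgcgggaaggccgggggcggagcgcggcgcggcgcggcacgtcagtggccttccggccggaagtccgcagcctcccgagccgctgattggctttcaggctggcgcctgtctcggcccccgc
In MCM6 an as-spelled match (TTTGGCGC) overlaps a reverse-complement match of another spelling (GCGCGAAA), and this pair occurs at 2 places. HELLS, CDC7 and E2F1 each hold 1 match in either orientation. The matches of CDC6 and MCM2 begin 7 and 2 bases after the start and are not shown. Matches were present in 7 of the 9 members past 1.5-fold in HCC1937 that had a window and in 13 of the other 29. The 9 and the 29 are parts of a list known for E2F control, and a match describes letters, not binding.

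**Figure D2:**
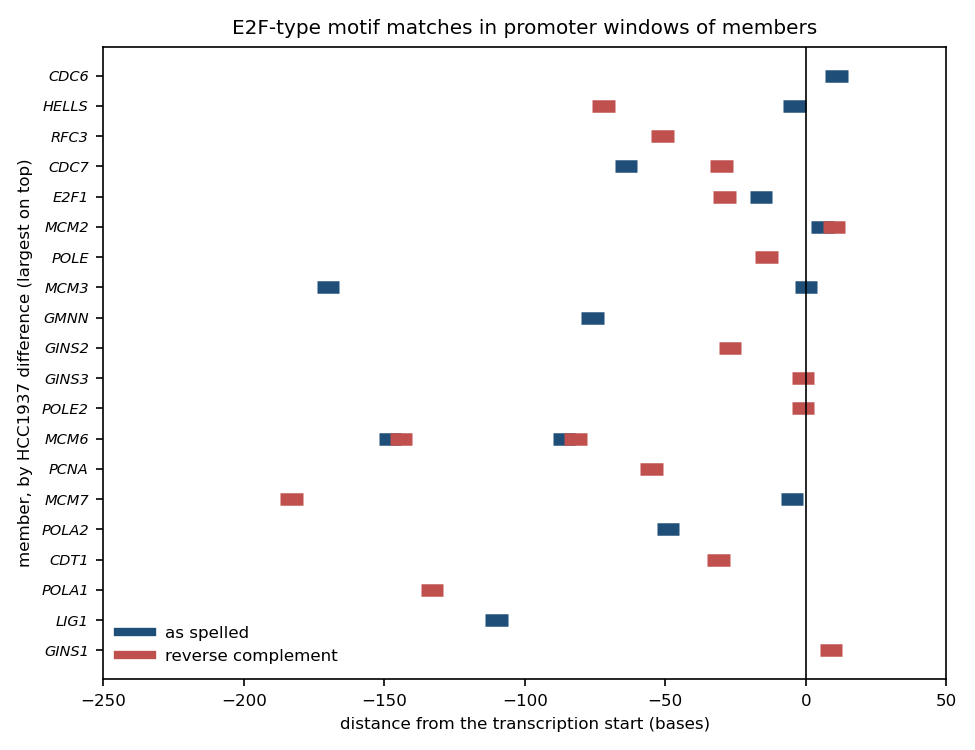
Position of each E2F-type motif match relative to the transcription start (horizontal axis, bases) in the 20 members with a match, ordered by HCC1937 difference with the largest on top. Blue bars are matches as spelled and red bars reverse complements; 18 of the 20 members have a match that begins at most 100 bases upstream of the start or after it.

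The CpG dinucleotide, the site of DNA methylation, occurred 30 times in the median member window and 14 times in the median window of all genes. The 11 constitutive reference genes with a window also had a median of 30, so this count does not set the members apart from those genes. DNA methylation itself was not measured.

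Origin licensing genes gave both the largest and the lowest difference of all members in HCC1937. CDC6, the ATPase that helps load the helicase (ENSG00000094804.10, chromosome 17, 40287633 to 40304657 on hg38), stood at 17.7 FPKM untreated and 35.1 with DAC in HCC1937, and at 29.7 and 31.3 in THP-1. The HCC1937 ratio was 1.98 with a counting interval of 1.87 to 2.09 (log2 difference 0.95), while in THP-1 the interval of 0.984 to 1.13 held 1. CDC6 thus lay just under 2-fold in HCC1937. CDT1, its loading partner, stood at 57.6 and 62.2 FPKM in HCC1937 and at 131 and 107 in THP-1. In HCC1937 CDT1 turned to the lower side under both scalings. Its THP-1 ratio of 0.813 (interval 0.788 to 0.840, log2 -0.30) was the lowest of all members in that line. Geminin (GMNN), which inhibits CDT1 after licensing, stood at 15.4 and 22.0 FPKM in HCC1937 and at 17.4 and 19.7 in THP-1.

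The origin recognition complex subunits differed among themselves. ORC1 stood at 4.97 and 6.69 FPKM in HCC1937 and at 28.3 and 29.4 in THP-1. ORC6 stood at 9.97 and 14.4 FPKM in HCC1937 and at 25.7 and 32.8 in THP-1, higher with DAC in both lines. ORC2 was at 3.57 and 3.11 FPKM in HCC1937 and at 3.84 and 4.54 in THP-1. Its HCC1937 ratio of 0.871 (log2 -0.15) was the lowest of the members there, and its interval of 0.751 to 1.01 held 1.

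The 6 genes of the MCM2-7 helicase, which unwinds the DNA, were all higher in the HCC1937 DAC library, unequally, against 66.2% of kept genes. MCM2 (ENSG00000073111.13, chromosome 3, 127598223 to 127622436) stood at 67.1 FPKM untreated and 107.7 with DAC, a ratio of 1.60 (interval 1.55 to 1.66). MCM3 stood at 67.0 and 100.9 FPKM and MCM4 at 38.1 and 58.7, with log2 differences of 0.58 and 0.61 on either side of the 1.5-fold line. MCM6 stood at 16.3 and 21.2 FPKM, MCM5 at 30.6 and 36.4, and MCM7 at 60.7 and 69.4. The intervals of MCM2, MCM3 and MCM4 (lowest bound 1.45) did not overlap those of MCM5, MCM6 and MCM7 (highest bound 1.39). Under upper-quartile scaling MCM5 and MCM7 were on the lower side in HCC1937 and the other 4 stayed higher, against 44.8% of kept genes.

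In THP-1 the same 6 subunits were nearly level between libraries, with 4 on the higher side as deposited and 2 under either scaling. MCM7 stood at 269 and 273 FPKM, the highest level of any member in that line, and MCM6 at 65.4 and 66.9, the lowest of the 6 as it was in HCC1937. MCM3 (181 and 194 FPKM) and MCM4 (107.5 and 119) were higher with DAC, and MCM2 (154 and 144) and MCM5 (191 and 181) lower, each with an interval that did not hold 1. These 4 differences were small, from -0.10 to 0.15 on the log2 scale. MCM3 and MCM4 stayed higher under both scalings, and MCM6 and MCM7 turned lower.

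Among the origin firing factors, CDC7 had the largest difference. CDC7, the kinase that phosphorylates the loaded helicase (ENSG00000097046.12, chromosome 1, 91500893 to 91525764), stood at 4.68 FPKM untreated and 9.24 with DAC in HCC1937 and at 16.6 and 19.8 in THP-1. Its ratio was 1.97 (interval 1.72 to 2.27) in HCC1937 and 1.19 (1.10 to 1.29) in THP-1. DBF4, its activating subunit, stood at 3.66 and 4.28 FPKM in HCC1937 and at 5.79 and 5.81 in THP-1, a HCC1937 ratio of 1.17 (interval 1.00 to 1.36) that lay below that of the kinase. DBF4 was on the lower side in HCC1937 under upper-quartile scaling. MCM10, which helps start the helicase, stood at 5.56 and 9.40 FPKM in HCC1937 and at 12.9 and 14.5 in THP-1. CDC45, which travels with the helicase, stood at 22.5 and 30.0 FPKM in HCC1937 and at 52.4 and 54.7 in THP-1.

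The 4 GINS subunits, which complete the active helicase, were uneven as well. GINS2 stood at 11.7 and 16.5 FPKM, GINS3 at 3.54 and 5.12 and GINS4 at 4.94 and 7.54 in untreated and DAC-treated HCC1937. GINS1 stood at 7.08 and 7.06 FPKM in HCC1937, a ratio of 0.997 (interval 0.883 to 1.13). In THP-1 the order was turned: GINS1 stood at 18.6 and 22.8 FPKM, a ratio of 1.23 (1.13 to 1.32), and the other 3 had ratios from 1.02 to 1.08, of which GINS3 and GINS4 had intervals overlapping that of GINS1.

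All 8 primase and polymerase genes among the members were on the higher side in HCC1937 as deposited, against 66.2% of kept genes. Under median-of-ratios scaling 6 were, against 56.2%, and under upper-quartile scaling 4, against 44.8%. Polymerase subunits outside the members went both ways. In HCC1937 POLD2 and POLD4 were lower (log2 -0.74 and -0.65), and POLE3 and POLE4 higher (0.07 and 0.27). The catalytic subunit of polymerase epsilon gave the largest difference of the 8. POLE stood at 6.29 FPKM untreated and 10.6 with DAC, a ratio of 1.69 (interval 1.59 to 1.78), and at 35.5 and 41.5 in THP-1. POLE2, its accessory subunit, stood at 3.04 and 4.32 FPKM in HCC1937 and at 6.10 and 8.18 in THP-1, where its ratio of 1.34 was the second highest of the members. POLA1, the catalytic subunit of polymerase alpha, stood at 3.13 and 3.25 FPKM in HCC1937 and at 8.17 and 8.35 in THP-1, with intervals holding 1 in both. Its partners were POLA2 at 3.14 and 3.63 FPKM, PRIM1 at 7.92 and 10.2 and PRIM2 at 4.10 and 5.58 in HCC1937. In THP-1, POLA2 stood at 16.3 and 18.7 FPKM and PRIM2 at 14.5 and 15.8. PRIM1, the small primase subunit, was also higher in THP-1, at 41.3 and 51.0 FPKM. POLD1, the catalytic subunit of polymerase delta, was the most abundant of these 8 genes in all 4 libraries, at 38.6 and 43.9 FPKM in HCC1937 and 148 and 146 in THP-1. POLD3, its accessory subunit, stood at 7.09 and 7.63 FPKM in HCC1937 and at 11.4 and 13.8 in THP-1.

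**Figure D3:**
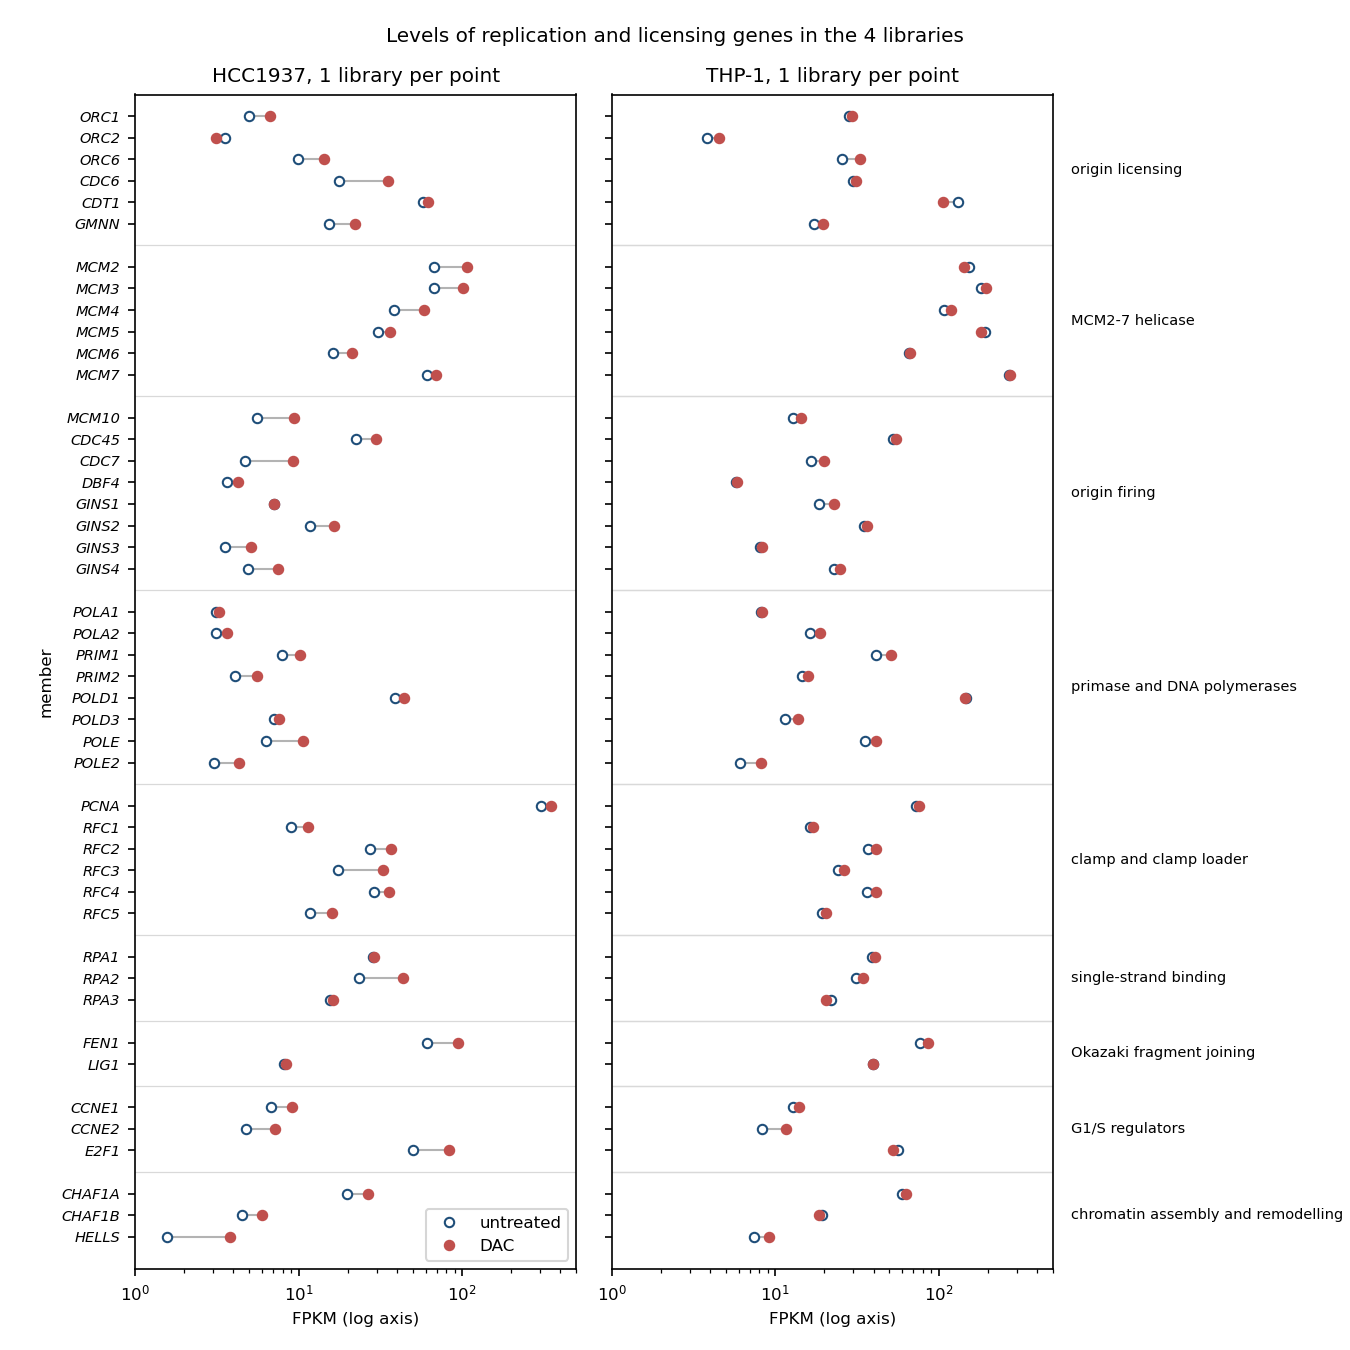
FPKM of each member (horizontal log axis) in the untreated (open circles) and DAC (filled circles) library of HCC1937 (left) and THP-1 (right), grouped by role, with 1 library per point. In HCC1937, 43 of 45 filled circles lie to the right of the open ones, and in THP-1 the 2 circles of most members touch.

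PCNA, the clamp that holds polymerases on DNA (ENSG00000132646.10, chromosome 20, 5114953 to 5126626), was the most abundant member in HCC1937. It stood at 304 FPKM untreated and 351 with DAC in HCC1937, a ratio of 1.15 (interval 1.12 to 1.19), and at 72.7 and 75.3 in THP-1. Its HCC1937 difference of 0.20 was close to the median of all kept genes and turned negative under upper-quartile scaling. In the clamp loader, RFC3 (ENSG00000133119.12, chromosome 13, 33818049 to 33966558) stood at 17.5 FPKM untreated and 32.7 with DAC in HCC1937 and at 24.3 and 26.5 in THP-1. The HCC1937 ratio of RFC3 was 1.87 (interval 1.73 to 2.03). The other 4 loader subunits had ratios from 1.23 to 1.38 there, with RFC2 at 27.4 and 36.8 FPKM, RFC4 at 28.9 and 35.6, RFC5 at 11.7 and 16.1, and RFC1, the large subunit, at 9.05 and 11.4; of these, RFC4 was on the lower side under upper-quartile scaling. RFC3 was thus apart from its partners by more than counting error in HCC1937. In THP-1 all 5 had ratios from 1.05 (RFC1, 16.3 and 17.0 FPKM) to 1.14 (RFC4, 36.6 and 41.6 FPKM).

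A similar split was present in RPA, the complex of 3 subunits that coats single-stranded DNA. RPA2 (ENSG00000117748.9, chromosome 1, 27891524 to 27914746) stood at 23.4 FPKM untreated and 43.3 with DAC in HCC1937, a ratio of 1.85 (interval 1.70 to 2.01), and at 31.2 and 34.6 in THP-1. RPA1, the large subunit, stood at 28.6 and 28.9 FPKM in HCC1937 and at 39.3 and 40.7 in THP-1. RPA3, the smallest, stood at 15.5 and 16.1 FPKM in HCC1937 and at 22.1 and 20.5 in THP-1. Both RPA1 and RPA3 were on the lower side in HCC1937 under either scaling, as was LIG1. The HCC1937 intervals of RPA1 and RPA3 ran up to 1.06 and 1.14, below the whole interval of RPA2. Okazaki fragment genes split likewise: FEN1, the flap nuclease, stood at 60.8 and 94.3 FPKM (ratio 1.55, interval 1.48 to 1.63), and LIG1, the ligase, at 8.15 and 8.36 (ratio 1.03, 0.939 to 1.12). In THP-1, FEN1 stood at 76.6 and 86.1 FPKM and LIG1 at 39.4 in both libraries.

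Among the G1/S regulators, E2F1 was higher with DAC in HCC1937 and lower in THP-1 as deposited and under both scalings, and cyclin E2 was higher in both. E2F1, a transcription factor of this gene programme and itself an E2F target (ENSG00000101412.12, chromosome 20, 33675683 to 33686404), stood at 50.1 FPKM untreated and 82.9 with DAC in HCC1937 and at 56.4 and 52.8 in THP-1. The ratios were 1.66 (interval 1.57 to 1.74) and 0.936 (0.887 to 0.988). CCNE2 (cyclin E2), an activator of the kinase CDK2, stood at 4.75 and 7.17 FPKM in HCC1937 and at 8.34 and 11.6 in THP-1. Its THP-1 ratio of 1.39 (interval 1.23 to 1.58, log2 0.44) was the highest of the members there. CCNE1 (cyclin E1) stood at 6.82 and 9.11 FPKM in HCC1937 and at 12.9 and 13.9 in THP-1.

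HELLS, a chromatin remodeller needed for DNA methylation (ENSG00000119969.14, chromosome 10, 94501434 to 94613905), had the largest ratio of all members in HCC1937. It stood at 1.57 FPKM untreated and 3.81 with DAC, a ratio of 2.43 (interval 2.12 to 2.79), and at 7.44 and 9.18 in THP-1, a ratio of 1.23 (1.09 to 1.39). Its difference on log2(FPKM + 1) was 0.90 and stayed under 2-fold because the pseudocount weighs on so low a level; with a pseudocount of 0.1 it was 1.23, and HELLS was then the only member past 2-fold. The subunits of chromatin assembly factor 1, which places histones on new DNA, were CHAF1A at 19.7 and 26.5 FPKM and CHAF1B at 4.52 and 5.97 in HCC1937. In THP-1, CHAF1A stood at 60.0 and 63.3 FPKM and CHAF1B at 19.3 and 18.6.

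**Figure D4:**
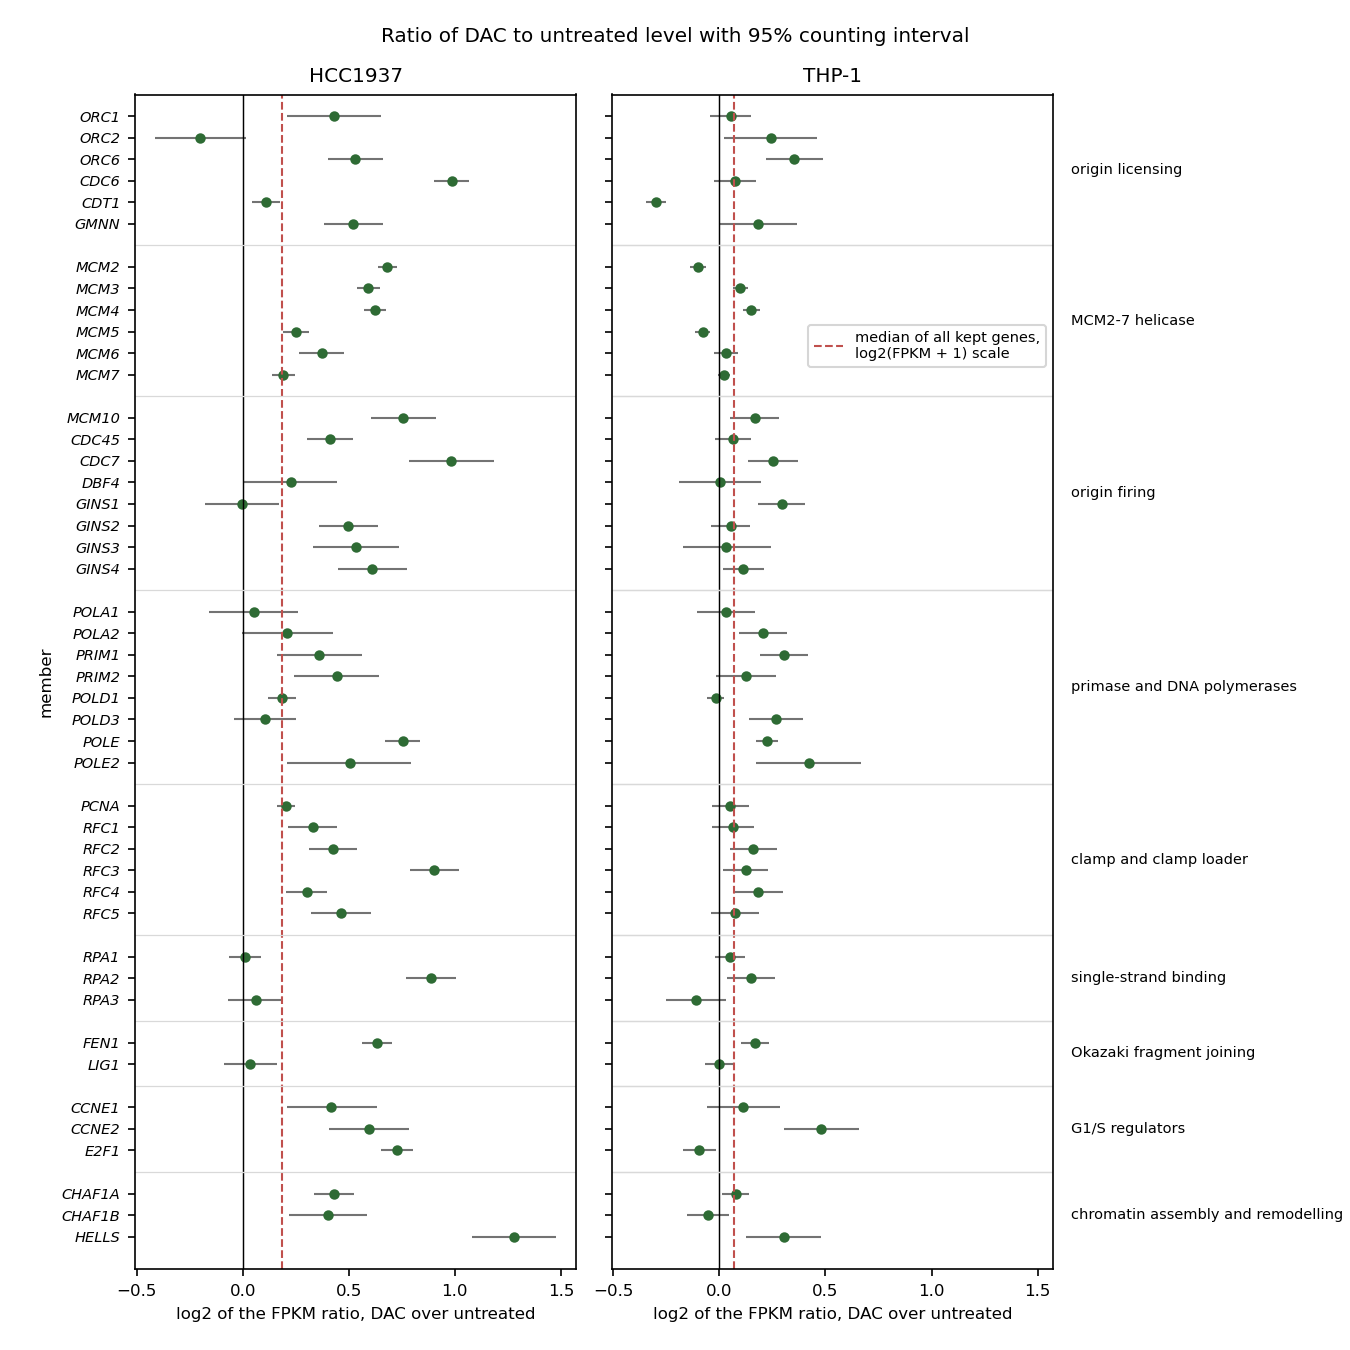
Log2 of the DAC to untreated FPKM ratio (horizontal axis) of each member with its 95% counting interval (bars), in HCC1937 (left) and THP-1 (right). The dashed line is the median difference of all kept genes on log2(FPKM + 1); HELLS, CDC6, CDC7, RFC3 and RPA2 lie farthest to the right in HCC1937, and CDT1 farthest to the left in THP-1.

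In THP-1, the members as a group were close to all other genes. Of the 45, 38 were higher with DAC by any amount, against 65% of the 12075 kept genes, and 7 were lower, against 34.7%. The number higher was 26 under median-of-ratios scaling, against 51.3% of kept genes, and 28 under upper-quartile scaling, against 54.9%. Their median log2 difference was 0.10 (quartiles 0.03 and 0.18), and that of all kept genes was 0.07. At 1.5-fold or more 0 were higher, against 3.3% of kept genes, and 0 lower, against 1%; at 2-fold these backgrounds were 1.14% and 0.364%. The counting interval lay wholly above 1 in 21 members, against 33% of kept genes, and wholly below 1 in 4 (CDT1, MCM2, MCM5 and E2F1), against 14%. Estimated reads for a member ran from 235 to 19677 in these libraries.

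Across the lines and as deposited, the HCC1937 difference exceeded the THP-1 difference in 40 of 45 members, against 57.4% of the 9798 genes kept in both lines. The 5 exceptions were ORC2, GINS1, POLA2, POLD3 and RPA1. Both differences were positive in 36 members (80%) and in 45.9% of the genes kept in both, also as deposited. These counts depend on scaling. Under upper-quartile scaling the members' median was 0.11 in HCC1937 and 0.04 in THP-1, against 0.40 and 0.10 as deposited. Positive differences were then found for 30 members in HCC1937 and 28 in THP-1, against 44.8% and 54.9% of kept genes. Beside the exceptions above, ORC6, MCM7, DBF4, POLA1, PRIM1, POLD1, POLE2, PCNA, RFC4, RPA3, LIG1 and CCNE2 then had the smaller difference in HCC1937. The count of 40 thus holds for the deposited values only, and the share of all genes under that scaling was not computed. Over the 45 members the 2 differences had a Pearson r of 0.21 and a Spearman rho of 0.26; over the genes kept in both lines these were 0.22 and 0.22. The members share libraries, so these coefficients describe the 2 pairs and carry no p-value. With 1 library a group the difference between the lines was not tested.

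**Figure D5:**
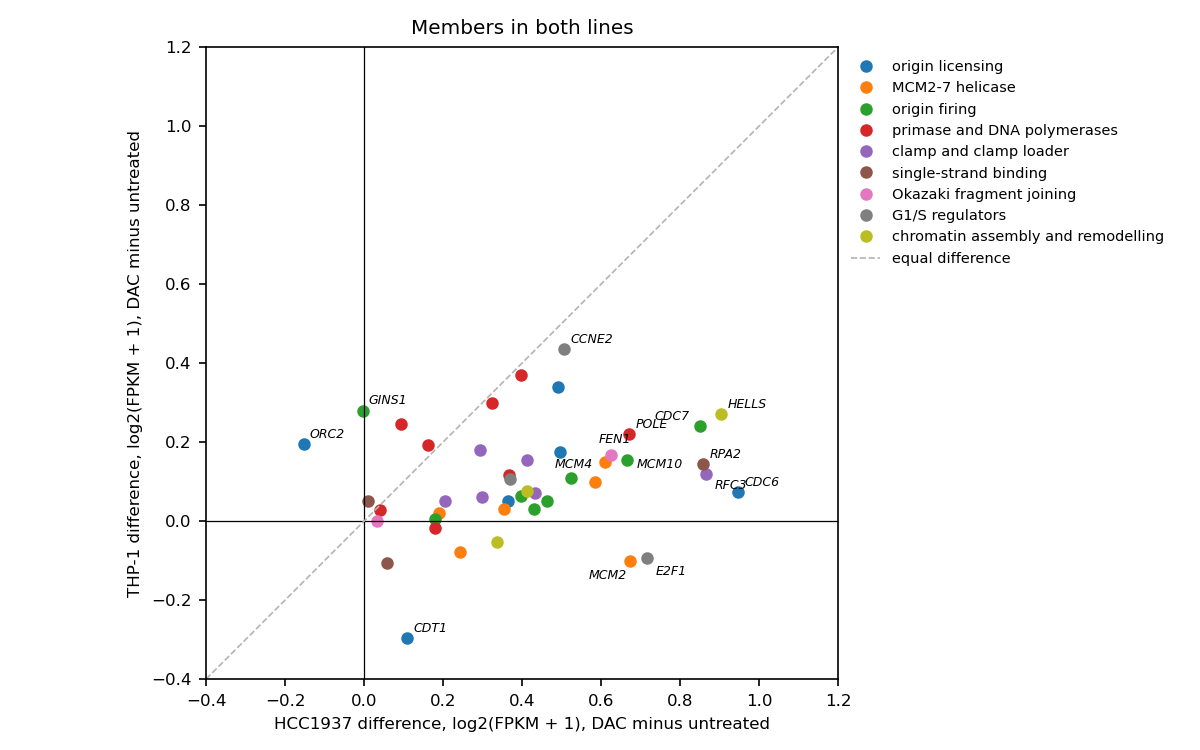
DAC minus untreated difference on log2(FPKM + 1) of each member in HCC1937 (horizontal) and THP-1 (vertical), coloured by role; the dashed line marks equal differences. Of the 45 points, 40 lie below the dashed line, and MCM2 and E2F1 lie past 1.5-fold in HCC1937 and below 0 in THP-1.

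The fit with residual degrees of freedom treated the lines as a block and tested the mean DAC difference over the 2 lines. By limma with Benjamini-Hochberg adjustment at 0.05 over 13984 genes, 0 of 45 members passed, and 0% of all genes passed in either direction. At an unadjusted p under 0.05 there were 3 members, all higher (CCNE2, HELLS and ORC6), against 565 of all genes (4.04%). Under either scaling 0 members had such a p. CCNE2 had the smallest p of the members, with a mean log2 difference of 0.47 (SE 0.14), a limma p of 0.028 and an adjusted p of 0.69. The lowest adjusted p of any member was 0.69 to 1 over the other settings of this fit, by limma. This fit has 1 residual degree of freedom a gene, and dose and time enter its residual together with the line.

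Other genes of the process were taken from lists written from general knowledge, with earlier results of these data known. Of 31 kept other replication factors in HCC1937, 28 were higher by any amount, against 66.2% of kept genes, with a median log2 difference of 0.40. The number higher was 25 with median-of-ratios scaling and 22 with upper-quartile scaling, against 56.2% and 44.8% of all kept genes. With either scaling 0 were past 2-fold higher, against 1238 and 1063 of the 14058 kept genes. As deposited 2 were past 2-fold higher and 0 lower, against 10.3% and 1.44% of kept genes. The 2 were TIPIN, a fork protection factor (3.30 and 8.03 FPKM), and DSCC1, of an alternative clamp loader (8.19 and 17.4 FPKM); CLSPN, a checkpoint mediator at forks, stood at 2.82 and 6.44. Past 1.5-fold lower were 2 genes, against 5.91% of kept genes. Both are accessory subunits of polymerase delta and were named after their values were seen. POLD2 stood at 49.5 and 29.1 FPKM (ratio 0.589, interval 0.557 to 0.622) and POLD4 at 37.9 and 23.7 (ratio 0.626, 0.584 to 0.670). The polymerase delta members POLD1 and POLD3 had intervals above these. POLD2 was past 2-fold lower with upper-quartile scaling. In THP-1, 28 of 32 were higher, against 65% of kept genes, at a median of 0.12, with 0 past 1.5-fold on log2(FPKM + 1). MCM8, a helicase of the MCM family, gave the largest difference (5.29 and 8.31 FPKM, log2 0.57), and its plain ratio was 1.57 (interval 1.38 to 1.78). DNA2, a nuclease and helicase, stood there at 5.78 and 7.69 FPKM, and DONSON, a factor of helicase assembly, at 12.1 and 15.5. Under the 2 scalings 20 and 21 of the 32 were higher, against 51.3% and 54.9% of all kept genes. E2F matches were present in 8 of the 27 genes of this list with a window (29.6%).

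Other E2F and G1/S genes had 17 of 22 kept on the higher side in HCC1937, against 66.2% of kept genes, at a median of 0.23. Past 1.5-fold 5 were higher and 0 lower, against 21.9% and 5.91%. With median-of-ratios scaling 13 were higher and with upper-quartile scaling 9, against 56.2% and 44.8% of all kept genes. SLBP, which binds histone mRNA, stood at 31.5 and 53.5 FPKM, CDC25A, a phosphatase that activates CDK2, at 9.58 and 16.1, and E2F2 at 7.12 and 11.9. In THP-1, 18 of 23 were higher, against 65% of kept genes, at a median of 0.12 and 0 were past 1.5-fold. RBL1, a relative of the retinoblastoma protein, stood there at 10.1 and 13.6 FPKM, E2F6 at 2.53 and 3.16, and FBXO5, an inhibitor of the anaphase-promoting complex, at 16.0 and 19.0. Under either scaling 14 of these 23 were higher, against the same 51.3% and 54.9% of all kept genes.

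Replication checkpoint genes had 10 of 10 kept on the higher side in HCC1937, against 66.2% of kept genes, at a median of 0.40. Past 1.5-fold higher were 3, against 21.9%. Under upper-quartile scaling 7 were higher, against 44.8% of all kept genes. HUS1, a subunit of the checkpoint clamp, stood at 2.43 and 4.78 FPKM, WEE1, the kinase that restrains mitotic entry, at 3.87 and 6.71, and RAD17, which loads that clamp, at 2.80 and 4.83. In THP-1, 10 of 12 were higher, against 65% of kept genes, at a median of 0.16 with 0 past 1.5-fold. As many were higher under either scaling, against 51.3% and 54.9% of all kept genes. ATM, a kinase of the DNA damage response, stood there at 4.67 and 6.21 FPKM, RAD17 at 7.95 and 9.55, and ATRIP, the partner of the kinase ATR, at 9.01 and 10.6.

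CDK inhibitors, which hold back the G1/S transition, went both ways in HCC1937. As deposited 1 of 7 was past 2-fold higher and 1 lower, against 10.3% and 1.44% of kept genes. Under either scaling 0 were past 2-fold higher and 2 lower. Of the 14058 kept genes, 1238 were then higher and 293 lower with median-of-ratios scaling, and 1063 and 480 with upper-quartile scaling. CDKN2A stood at 203 FPKM untreated and 66.3 with DAC (ratio 0.326, interval 0.316 to 0.337), and CDKN2C at 14.9 and 7.36, the second to pass 2-fold lower with scaling. CDKN1A, which encodes p21, stood at 53.03 and 110.7 FPKM (ratio 2.09, 2.00 to 2.18). In THP-1, CDKN1C stood at 2.05 and 4.40 FPKM, CDKN1A at 33.0 and 47.7 and CDKN2D at 17.3 and 13.6, with 0 of 5 kept past 2-fold on log2(FPKM + 1). The plain FPKM ratio of CDKN1C was 2.15 (interval 1.63 to 2.84).

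Reference values in the same libraries moved as well. The 15 constitutive reference genes had a median log2 difference of -0.01 in both lines, with 7 higher and 8 lower in HCC1937; median-of-ratios scaling made it -0.14 in HCC1937 and upper-quartile scaling -0.30. In that line GAPDH stood at 2037 and 1329 FPKM, TFRC at 95.3 and 182, and POLR2A at 28.4 and 53.8. In THP-1, B2M stood at 854 and 1074 FPKM, TFRC at 37.7 and 45.9, and PGK1 at 319 and 275. The 15 epithelial markers summed to 2538 FPKM in untreated and 2814 in DAC-treated HCC1937, with KRT19 at 3.87 and 294, KRT14 at 14.9 and 112, and CDH1 at 58.5 and 117. These markers went both ways: 9 were higher, against 66.2% of kept genes, and 6 lower, with 3 past 1.5-fold on each side. The 3 lower ones were CLDN4 at 188 and 98.1 FPKM, CLDN7 at 181 and 115, and ELF3 at 68.6 and 44.5. Under upper-quartile scaling 3 of the 15 were higher, against 44.8% of kept genes, and 12 lower. The 15 myeloid markers summed to 11.1 FPKM in untreated and 28.5 in DAC-treated HCC1937, against 4317 and 3947 in the THP-1 libraries. In HCC1937, 2 of the 15 reached 1 FPKM untreated and 5 with DAC. Of these 5, 4 were higher with DAC, against 66.2% of kept genes, and 1 was lower. The lower one was CD14, at 8.69 and 7.06 FPKM (ratio 0.812, interval 0.687 to 0.966). LAPTM5 stood in HCC1937 at 1.09 and 13.3 FPKM, TYROBP at 0 and 3.24, and CSF1R at 0.22 and 1.54. MPO, ELANE, AZU1, LYZ and CTSG were also listed at 0 in untreated HCC1937, and PRTN3, CD33, LYZ and CTSG were so with DAC. The part of these differences in those of the members was not tested.

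Levels depend on the gene model. The HCC1937 values fit exon lengths over all GENCODE 29 transcripts, and the THP-1 values come closer to the shorter lengths of RefSeq-matched transcripts. HELLS has 10148 and 3317 exon bases in these, POLE 16609 and 7840, and MCM5 7338 and 3534, so a given number of reads gives a lower FPKM in HCC1937, and levels are not compared across lines. Ratios within a line do not depend on length. In 21 members some exon bases are shared with another gene, over 20% of them in CCNE2, POLA2, MCM2, GINS4 and PRIM1, and strand use in counting is not given in the sources used here. Processed copies named after DBF4, PCNA, RFC3, RFC5, RPA2 and FEN1 are annotated elsewhere in the genome, so the levels of these 6 are less certain.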

How the data were processed

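RNA of 4 libraries was sequenced, and the authors deposited 1 table of values by gene symbol. The tools named in the submitters' processing notes are STAR, HTSeq, cutadapt and FastQC, with the build hg38; versions, annotation and strand use are not given in the sources used here. No unit is stated in the deposited table; FPKM computed by the authors was inferred, because for short genes (50 to 250 bp) value times exon length fell within 0.1 of whole multiples of a single step in 92.2% to 94.2% of values. Of 60612 lines, 37039 lack a THP-1 value, and the THP-1 columns come closer to another set of gene lengths. Lines of 76 repeated symbols (1079 lines) were left out.

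Differences were taken as log2(FPKM + 1) within a line, without rescaling, for genes reaching 1 FPKM in either library, and counted at 2-fold and 1.5-fold. Reads were estimated from FPKM, depth and exon length (GENCODE 29 for HCC1937, RefSeq-matched transcripts for THP-1), and intervals are exact (Clopper-Pearson, 95%). All 4 libraries entered a limma fit (version 3.58.1, R 4.3.3) with line as a term and an intensity trend. The fit was also run on simulated data in which the changes were the same in both lines. That run cannot show what the fit detects where the lines respond differently. Scripts ran in Python 3.11.15 (scipy 1.17.1, numpy 2.4.6, pandas 2.3.3, matplotlib 3.10.9). The plan allowed for counts; as the values are FPKM, its rule for normalised values was used. Alternatives were median-of-ratios scaling (over genes of at least 1 FPKM in both libraries), upper-quartile scaling, other pseudocounts, filters and fold limits, and limma without the line term or the trend. Named genes were all members, and up to 3 genes a line of each other list with the largest differences. The members and lists were chosen with earlier results of these data known.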

Additional observations from a re-analysis of the deposited data

Results flagged for a closer look

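MCM2 and E2F1 are listed because DAC and untreated libraries differed in opposite directions in the 2 lines. Both were also at least 1.5-fold higher with DAC in HCC1937 as deposited, and the listing required 1.5-fold in 1 line. The share of all genes that meet both conditions was not computed. Opposite directions alone were more common. Of the 45 members, 7 were higher with DAC in HCC1937 and lower in THP-1, and 2 the reverse. Of the 9798 genes kept in both lines, 1786 and 1831 were. The log2 difference of MCM2 was 0.67 in HCC1937 and -0.10 in THP-1, and that of E2F1 was 0.72 and -0.09. With 1 library a group this difference between the lines was not tested, and dose and time differ between the lines as well.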

How the results depend on the processing

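In HCC1937 the members' median log2 difference was 0.26 under median-of-ratios scaling, 0.11 under upper-quartile scaling and 0.22 with a pseudocount of 10, against 0.40 as reported. The members past 1.5-fold higher were 5, 2 and 5 under these settings, against 11, beside 17.6%, 14.2% and 3.33% of all kept genes, against 21.9%. Members past 2-fold higher were 1 with a pseudocount of 0.1, against 0. With 1.5-fold as the limit 11 were called, and with a counting interval wholly beyond 1 there were 37 higher in HCC1937 and 21 higher and 4 lower in THP-1. These limits are looser by construction, and the cause of the other shifts was not tested. CDC6 and HELLS were past 1.5-fold under both scalings, and no member past 1.5-fold changed direction in any setting. By limma 0 members and 0 of all genes passed in every setting run, with 0 to 4 members at an unadjusted p under 0.05. No paired analysis was possible because each group holds 1 library, other than the limma fit with line as a term, which pairs the libraries of a line. Within a line, counting error is the only error set beside a member, and the spread between the lines enters the limma SE.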
